A study of Mus musculus with 4 samples.

Results

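The metalloproteinases described here are 50 genes of 3 related families: 23 matrix metalloproteinases (MMPs), 9 ADAMs and 18 ADAMTS genes. They were chosen by name, as every non-control probe of the arrays whose gene name was on a list of these families, which gave 102 of 56605 probes and 50 of 37074 gene names. The arrays compared NIH3T3 cells, an established line of mouse fibroblasts, after transfection with a small interfering RNA against Timp1 (siTIMP1, n = 2 arrays) or with a control RNA (siControl, n = 2 arrays). The labels also call these cells dermal, although NIH3T3 was derived from mouse embryos. Both RNAs were delivered with the carrier abbreviated sCA in the labels, which the series title calls apatite nanoparticles, and all cells grew in medium with 2% fetal calf serum. Neither time after transfection nor an untransfected group is given in the labels, so every value below is relative to cells that also received the carrier and an RNA. Whether the 2 arrays of a group represent separate cultures is not in the labels. The tests therefore rest on a spread between arrays that could be technical alone.

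These enzymes are zinc-dependent proteases that cut proteins outside the cell or at its surface. MMPs are made as inactive precursors, degrade collagens and other matrix proteins once activated, and are held in check by the TIMP proteins, of which Timp1 encodes a secreted member. ADAMs are membrane-bound and release the outer parts of surface proteins such as growth factors, cytokine receptors and Notch, while ADAMTS proteases are secreted and process procollagens or cut the large proteoglycans of the matrix. The comparison asks which of these genes changed at the transcript level when Timp1 was lowered. It does not measure protease activity.

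Timp1, the targeted gene, had normalised log2 signals of 8.16 and 8.54 in siControl and 3.28 and 2.98 in siTIMP1. It fell by 5.22 on the log2 scale (SE 0.158, adjusted p = 0.0105). The call was lost without a variance trend (adjusted p = 0.133) and without siTIMP1 replicate 1 (0.137) or replicate 2 (0.184), settings in which no gene on the array was called; the difference was then -5.22, -5.37 and -5.07. All 11 fibroblast markers examined, among them Col1a1, Vim and Thy1, were well above background on all 4 arrays. Of 7 epithelial markers Krt8 and Krt14 were above background on all 4 arrays, Krt18 on 1, and Epcam, Cdh1, Krt5 and Cldn4 on none. Of 6 endothelial markers Vwf was above background on all 4 arrays, Pecam1 on 2, and Cdh5, Kdr, Tek and Emcn on none. Of 8 leukocyte and macrophage markers 5 (Ptprc, Csf1r, Itgam, Cd14 and Cd68) were above background on all 4 arrays, while Adgre1, Fcgr3 and Tyrobp never were. The summed level of that list, in units of each array's 75th percentile, was 19 and 19.4 in siControl and 17.2 and 15.8 in siTIMP1, and its part in the differences below was not tested. All 4 arrays lay on 1 slide, siControl in places 1 and 2 and siTIMP1 in places 3 and 4, so place on the slide and group cannot be told apart. The share of spots well above background was 45.9% to 52.1%, lowest on siTIMP1 replicate 2, whose probes not above background had a median of -5.9 against -6.69 to -6.59 on the other arrays. Probes that were not above background on both arrays of either group are therefore not compared. A tested probe can still hold such a dim value on an array of the other group, and Adamts9 does on siTIMP1 replicate 2.

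A 427-kb stretch of chromosome 9 holds 10 of the 23 MMP genes side by side, and most promoters of this cluster share letters that few of the other members' promoters hold. The cluster contains collagenases (Mmp13, Mmp8, Mmp1a, Mmp1b), stromelysins (Mmp3, Mmp10), the matrilysin Mmp7, the macrophage elastase Mmp12, the enamel protease Mmp20 and Mmp27. The 110 bases before the annotated start of 7 of these genes are printed because they hold the sequence TGANTCA. N is any base, and the pattern reads the same on both strands. It is a loose form of the letters bound by the AP-1 factors Fos and Jun, in which N is C or G. Mmp20 has A there and matches only the loose form, which is meant by AP-1 letters below. Capitals mark TGANTCA and the TATA box letters TATAAA, and each window is shown 5′ to 3′ on the gene's strand.
Mmp13: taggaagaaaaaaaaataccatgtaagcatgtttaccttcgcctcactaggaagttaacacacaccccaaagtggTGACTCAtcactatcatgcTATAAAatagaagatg
Mmp1b: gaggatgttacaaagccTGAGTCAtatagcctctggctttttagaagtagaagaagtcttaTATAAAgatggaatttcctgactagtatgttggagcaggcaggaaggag
Mmp3: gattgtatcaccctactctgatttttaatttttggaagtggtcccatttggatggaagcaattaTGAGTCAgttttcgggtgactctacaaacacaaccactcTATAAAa
Mmp1a: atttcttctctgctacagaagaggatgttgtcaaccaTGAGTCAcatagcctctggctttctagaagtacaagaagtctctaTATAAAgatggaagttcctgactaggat
Mmp10: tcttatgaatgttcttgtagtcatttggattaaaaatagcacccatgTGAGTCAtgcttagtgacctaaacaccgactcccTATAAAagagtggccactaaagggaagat
Mmp20: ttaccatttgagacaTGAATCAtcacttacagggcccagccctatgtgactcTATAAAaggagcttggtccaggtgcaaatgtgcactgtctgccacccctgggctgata
Mmp7: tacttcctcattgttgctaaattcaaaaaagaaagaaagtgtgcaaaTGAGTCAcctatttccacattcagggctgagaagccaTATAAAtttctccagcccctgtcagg

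The windows are from RefSeq on build GRCm38.p6 and lie at chr9:7272404-7272513 for Mmp13, chr9:7388027-7388136 for Mmp1b, chr9:7445712-7445821 for Mmp3, chr9:7464031-7464140 for Mmp1a, chr9:7502232-7502341 for Mmp10, chr9:7628121-7628230 for Mmp20 and chr9:7691980-7692089 for Mmp7, all on the plus strand except Mmp1b. In these 7 windows the first letter of the AP-1 sequence lay 35 (Mmp13) to 95 (Mmp20) bases before the start. At least 1 copy of the TATA letters lay between it and the start in each of them, without overlap. Mmp12 had the AP-1 letters 44 bases before the later of its 2 annotated starts, and Mmp8 and Mmp27 had none. In 300-base windows, from 250 bases before to 50 after a start, TGANTCA occurred in 7.81% of all 32851 promoters in the table and in 8 of 12 cluster promoters. TATAAA, searched on both strands, occurred in 13.6% of all promoters and in 9 of these 12. A match is a description of the letters, and binding was not measured.

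Promoters of the other members looked different. Of the 50 members 34 had an entry in the promoter table, with 39 promoters. For the 13 members outside the cluster that were above background on all 4 arrays and had an entry, the median GC content was 64.7% with a median of 19 CpG dinucleotides, against 41.7% and 1 in the cluster and 52.7% and 7 over all promoters. The GC box GGGCGG, searched on both strands and bound by Sp1, was found in 11 of their 15 promoters, in none of the 12 cluster promoters and in 35.7% of all promoters. TGANTCA was found in 1 of these 15 promoters, that of Adam19. The 11 members outside the cluster that were above background on fewer arrays or none had much the same composition, with a median GC content of 66%. Adam10 and Adamts14, both measured, are printed as examples, with GGGCGG or its reverse complement CCGCCC in capitals.
Adam10: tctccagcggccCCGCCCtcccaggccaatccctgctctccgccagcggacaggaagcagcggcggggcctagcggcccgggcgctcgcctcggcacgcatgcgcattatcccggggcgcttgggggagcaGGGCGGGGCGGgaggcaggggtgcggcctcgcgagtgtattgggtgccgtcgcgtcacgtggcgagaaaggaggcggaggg
Adamts14: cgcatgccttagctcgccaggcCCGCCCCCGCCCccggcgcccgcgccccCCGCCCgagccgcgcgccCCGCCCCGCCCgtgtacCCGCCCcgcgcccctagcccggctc

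These windows lie at chr9:70678732-70678943 on the plus strand and chr10:61273420-61273529 on the minus strand of GRCm38.p6.

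**Figure D1:**
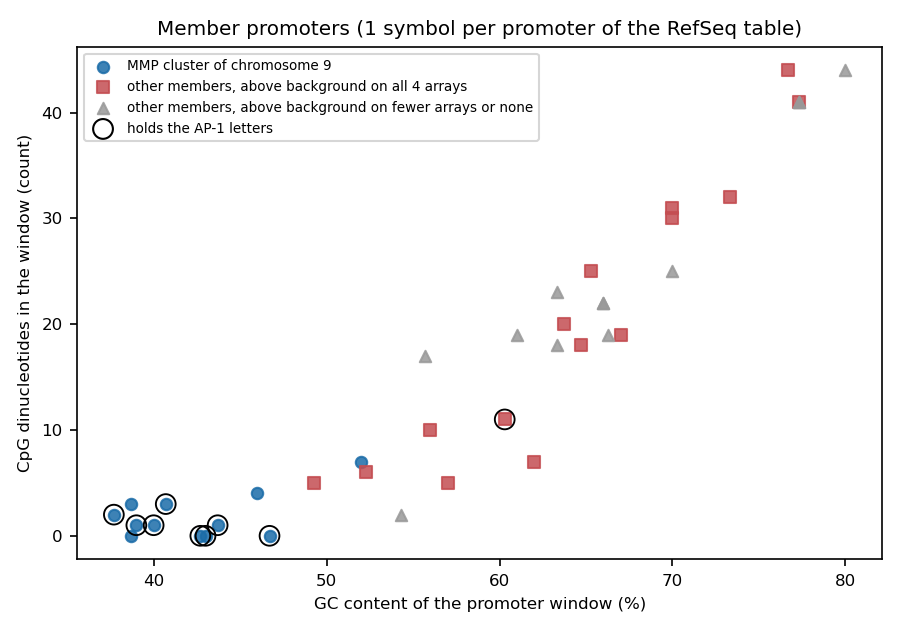
GC content (horizontal, percent) against the number of CpG dinucleotides (vertical) in each 300-base member promoter of the RefSeq table. Blue circles are the chromosome 9 cluster, red squares other members above background on all 4 arrays, grey triangles the remaining members, and a black ring marks the AP-1 letters. The cluster sits at 37.7% to 52% GC with 0 to 7 CpGs and holds 8 of the 9 ringed promoters.

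Which members gave a measurable signal was read from the scanner's call that a spot is well above background. At least 1 probe passed on all 4 arrays for 24 of 50 members (48%), beside 43.2% of all gene names on the array. These were 7 of 23 MMPs, 8 of 9 ADAMs and 9 of 18 ADAMTS genes. A further gene, Adamts9, had a probe above background on both siControl arrays and on siTIMP1 replicate 1, so that 25 members were tested. The other 25 had no probe above background on both arrays of either group, 5 of them passing on 1 array and 20 on none. No spot was saturated.

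Of the 23 MMPs, 12 were above background on no array and 4 on 1 array. None of the 10 cluster genes was tested: 12 of their 14 probes were never above background, and Mmp8 passed on siControl replicate 1 only and Mmp13 on siTIMP1 replicate 1 only. Of the 13 MMPs elsewhere in the genome, 7 were above background on all 4 arrays: the gelatinases Mmp2 and Mmp9, Mmp11, the membrane-type enzymes Mmp14 and Mmp17, and Mmp19 and Mmp28. Mmp15 and Mmp23 passed on siTIMP1 replicate 1 only, and Mmp16, Mmp21, Mmp24 and Mmp25 passed on no array. Among the 9 listed ADAMs only Adam22, a brain protein without protease activity, was never above background. Among the 18 listed ADAMTS genes this held for Adamts3, Adamts8, Adamts16, Adamts17, Adamts18, Adamts19 and Adamts20. The member list does not hold every gene of these families, so its counts depend on which genes were listed. Adam11, Adam28 and Adam33, above background on all 4 arrays, and Adamts13, on none, are counted below with the other metzincins.

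**Figure D2:**
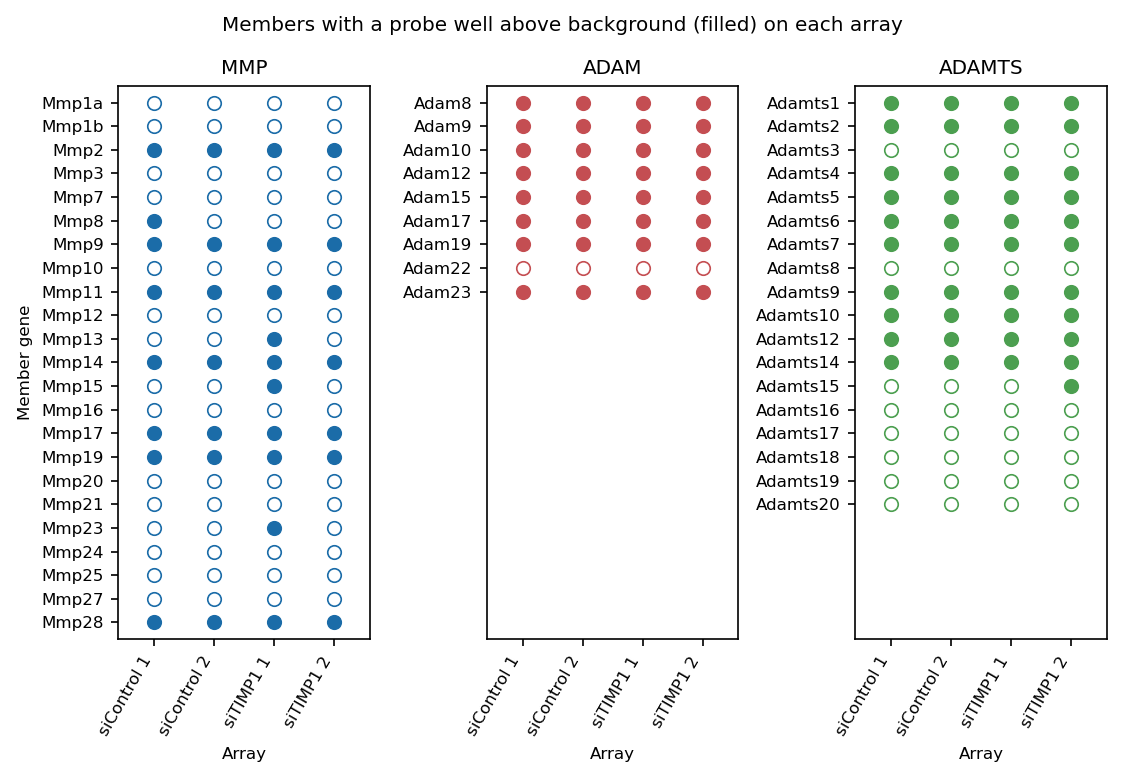
Each row is a member and each column an array. A filled symbol means that at least 1 probe of the gene was well above background there, and an open symbol that none was. Rows filled throughout number 25, and in that of Adamts9 the symbol of siTIMP1 replicate 2 comes from a different probe than the other 3.

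Lone signals on siTIMP1 replicate 2 came with uneven spots. The only probe of Adamts15, a protease of proteoglycans, had normalised signals of -6.59 and -6.68 in siControl, -6.61 on siTIMP1 replicate 1 and -2.19 on siTIMP1 replicate 2. In that last spot the pixels averaged 62.7 with a median of 46.5 and an SD of 42.6, while the SD was 4.58 to 6.95 on the other arrays. An Adamts9 probe showed the same form, with -1.11 on siTIMP1 replicate 2 and -6.92 to -6.84 elsewhere. Its pixel SD was 111 there and at most 6.92 on the other arrays. Neither spot was marked as an outlier by the scanner software, and neither probe was tested.

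The 25 tested members centred near 0. Their median log2 difference, siTIMP1 minus siControl, was 0.022, beside 0.025 over all 17647 genes tested, with 12 values below 0 and 13 above. Over all genes 46% of values were below 0. With limma, 1 member was lower and 0 were higher at an adjusted p under 0.05. Over all genes tested 0.703% were called lower, 0.085% higher and 0.788% either way. By probe, 1 of 42 member probes was lower and 0 were higher, beside 0.627% and 0.0615% of all tested probes. At an unadjusted p under 0.05, 3 members were lower and 3 higher (12% each, beside 7.99% and 11.9% of all genes). The 2 groups did not overlap for 12 members (48%), 6 in each direction, beside 54% of all genes (22.9% lower and 31.1% higher). The standard errors ran from 0.0541 (Adam15) to 0.338 (Mmp17) with a median of 0.13. In these bulk samples fewer expressing cells and less RNA per cell cannot be told apart.

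**Figure D3:**
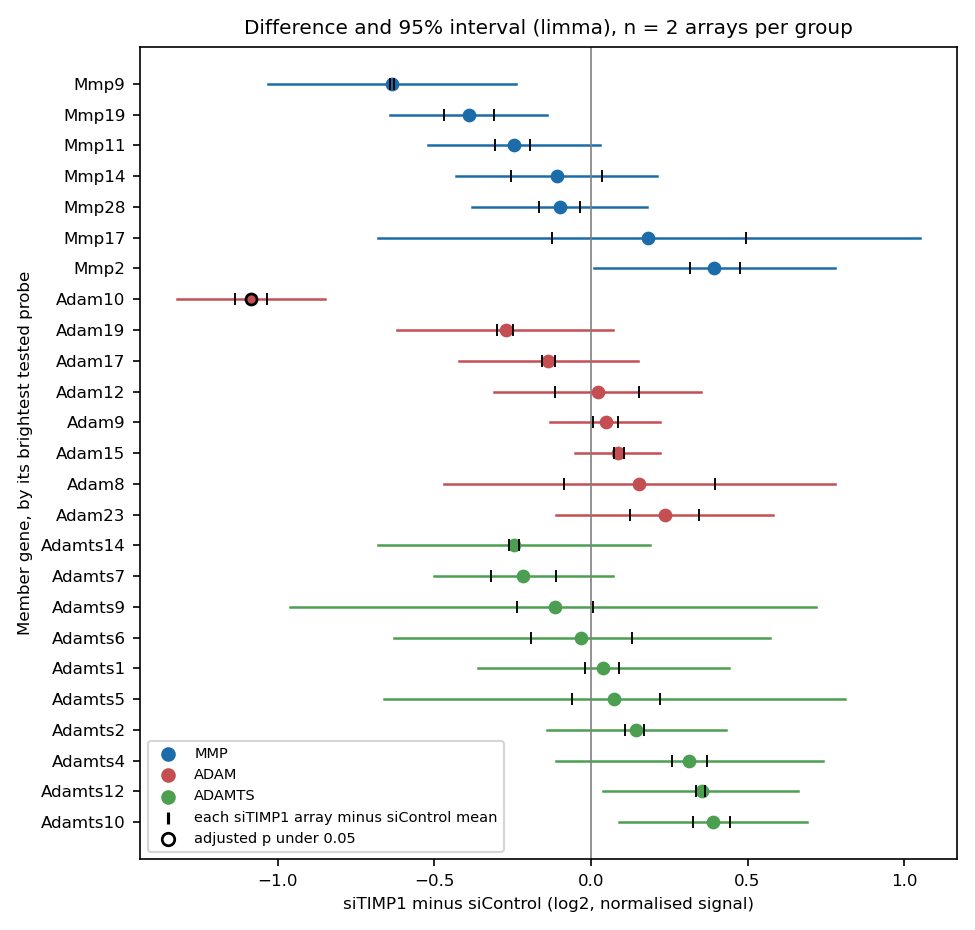
The log2 difference between siTIMP1 and siControl for each tested member (dot) with its 95% limma interval (line), and each siTIMP1 array minus the siControl mean (black ticks), n = 2 arrays per group. Adam10, at -1.09 with an interval of -1.32 to -0.85, stands alone on the left and is the only dot ringed for an adjusted p under 0.05.

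Adam10 encodes the main protease that cuts Notch receptors, N-cadherin and the amyloid precursor protein at the cell surface. Its brighter probe read 793.5 and 859.3 as processed signal in siControl, and 415.9 and 387.1 in siTIMP1. As normalised log2 signals these were 2.09 and 2.24 in siControl and 1.13 and 1.03 in siTIMP1. The groups were well separated, since siControl averaged 2.17 ± 0.105 (SD, n = 2) while siTIMP1 averaged 1.08 ± 0.0719 (SD, n = 2). Adam10 fell by 1.09 (SE 0.0931, limma adjusted p = 0.0281), to 47.1% of the siControl level.

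The dimmer Adam10 probe had log2 signals of -3.26 and -3.07 in siControl and -3.98 and -4.43 in siTIMP1, the last of them not well above background. That probe entered the test only through siControl, where it is high, so its fitted difference of -1.04 (interval -1.79 to -0.30, adjusted p = 0.182) is a description and lends no support to the call. The call of Adam10 was lost when either siTIMP1 array was left out (adjusted p = 0.174 without replicate 1 and 0.23 without replicate 2), while the value stayed between -1.16 and -1.01 whichever array was left out. It was also lost in limma without a variance trend (adjusted p = 0.133) and with the mean of both probes (-1.07, adjusted p = 0.0829). Without either siTIMP1 array or without the trend, 0 of 17647 genes were called in either direction.

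The probes of Adam10, Mmp9 and Adam12 are shown because they report on separate stretches of each transcript. The 30 letters given are the 5′ part of each 60-base probe, as in the array files, all in lower case. Coordinates are those of the files, on mm9.
Adam10 brighter probe, chr9:70627859-70627918: gaccagtgagatctaatactactgtcagtt
Adam10 dimmer probe, chr9:70626002-70626060: taatagttgaagaaaaaatggcaagagatc
Mmp9 brighter probe, chr2:164780620-164780679: ccaaccttttccagctactttagtcaatca
Mmp9 dimmer probe, chr2:164779091-164780300: ctggaactcacacgacatcttccagtacca
Adam12 brighter probe, chr7:141079625-141081861: atcagacctgcccctaagcatcaagtaccc
Adam12 dimmer probe, chr7:141075827-141075886: gaaaatcaagttagcactaattacaaaatg

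Probes of Adam10 and Mmp9 are on the plus strand and those of Adam12 on the minus strand. The dimmer Mmp9 probe and the brighter Adam12 probe cover 1210 and 2237 bases of the genome with 60 letters, so they cross exon junctions. The other 4 span no such gap, although the dimmer Adam10 probe covers 59 bases with its 60 letters.

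Mmp9 and Mmp2 encode the gelatinases, which cut denatured collagen and basement membrane. Mmp9 had log2 signals of -0.75 and -0.39 in siControl and -1.20 and -1.21 in siTIMP1 at its brighter probe. Both siTIMP1 arrays lay below both siControl arrays there, by -0.63 on average (SE 0.154, interval -1.03 to -0.24), and the adjusted p was 0.157. The dimmer probe, over an exon junction, had -1.05 and -0.90 in siControl and -1.01 and -0.94 in siTIMP1. It showed no separation between groups, with an interval of -0.31 to 0.31. Mmp2 had 4.11 and 3.70 in siControl and 4.22 and 4.38 in siTIMP1. Its difference of 0.39 (SE 0.149, adjusted p = 0.262) was smaller than the gap between the siControl arrays. Without siControl replicate 1 both gelatinases passed, Mmp2 at 0.60 (adjusted p = 0.0307) and Mmp9 at -0.81 (adjusted p = 0.0428). In that setting calls over all genes also rose, from 124 to 643 lower and from 15 to 408 higher. Without siControl replicate 2 neither passed, with Mmp2 at 0.19 (adjusted p = 0.329) and Mmp9 at -0.46 (adjusted p = 0.189).

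Membrane-type MMPs act at the cell surface, and Mmp14 is a known activator of the Mmp2 precursor. Mmp14 had 2.04 and 1.89 in siControl and 1.71 and 2.00 in siTIMP1. The groups overlapped, with a difference of -0.11 (interval -0.43 to 0.21, adjusted p = 0.66). Mmp17, dim on every array, had -4.11 and -3.90 in siControl and -4.13 and -3.51 in siTIMP1. Its interval of -0.68 to 1.05 was the widest among the tested members.

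The remaining tested MMPs all had values below 0, none of which passed. Mmp19, a stromelysin-like enzyme, had 1.53 and 1.41 in siControl and 1.16 and 1 in siTIMP1 at its brighter probe. Both siTIMP1 arrays were lower, by -0.39 on average (SE 0.0995, adjusted p = 0.164). Its dimmer probe had -1.64 and -3.57 in siControl and -4.21 and -4.16 in siTIMP1, the last not well above background, so the siControl arrays disagreed with each other by more than siControl replicate 2 did with siTIMP1. Mmp11, also known as stromelysin-3, had 0.85 and 0.66 in siControl and 0.45 and 0.56 in siTIMP1. It did not overlap between groups (difference -0.24, adjusted p = 0.312). Mmp28, also called epilysin, had 0.03 and -0.10 in siControl and -0.20 and -0.07 in siTIMP1. These overlapped, with a difference of -0.10 (interval -0.38 to 0.18).

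**Figure D4:**
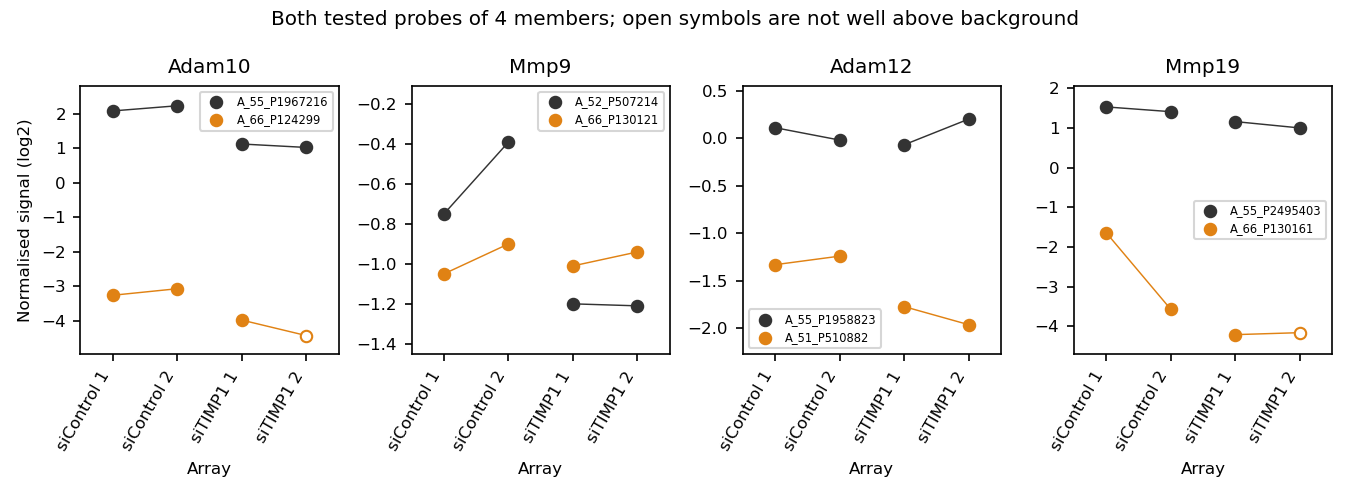
Normalised log2 signal on each array for both tested probes of Adam10, Mmp9, Adam12 and Mmp19, with lines joining arrays of the same group and open symbols where a probe was not well above background. The brighter Adam10 probe sits lower in siTIMP1 by -1.09, the dimmer one has a siTIMP1 spot not well above background, and in Mmp9 and Adam12 the separation between groups shows at a single probe.

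Among the ADAMs besides Adam10, no gene passed the threshold. Adam17, which releases tumour necrosis factor and ligands of the EGF receptor and shares substrates with Adam10, had 0.81 and 1.04 in siControl and 0.77 and 0.81 in siTIMP1. Its difference was -0.14 (SE 0.111, interval -0.42 to 0.15), and its dimmer probes gave -0.40 and -0.13. Adam19, which can cut neuregulins, had 3.29 and 3.67 in siControl and 3.18 and 3.23 in siTIMP1. The siTIMP1 arrays were the lower ones, by -0.27 (adjusted p = 0.349), and its value depended on the siControl array kept. It was -0.46 (adjusted p = 0.0342) without siControl replicate 1, where 643 genes in all were called lower, and -0.08 (adjusted p = 0.606) without siControl replicate 2.

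Adam15, a disintegrin that binds integrins, had 4.85 and 4.90 in siControl and 4.98 and 4.95 in siTIMP1. All 3 of its probes were slightly higher in siTIMP1, by 0.09 to 0.17, with none called. The 2 brightest of them overlap on the genome, so they are not separate evidence. Adam23, which lacks protease activity, had -0.98 and -1.11 in siControl and -0.92 and -0.70 in siTIMP1 at its brighter probe (difference 0.235), and its dimmer tested probe gave -0.18. Adam12, a disintegrin of mesenchymal cells, likewise depended on the probe. Its brighter probe had 0.11 and -0.02 in siControl and -0.07 and 0.20 in siTIMP1, with a difference of 0.02. Its dimmer probe had -1.33 and -1.24 in siControl and -1.77 and -1.96 in siTIMP1, with a difference of -0.58 (adjusted p = 0.155). Adam9 (0.05, interval -0.13 to 0.22) and the leukocyte-associated Adam8 (0.15, interval -0.47 to 0.78) overlapped between groups.

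ADAMTS genes had no call in either direction, and their values at the brightest tested probes lay between -0.25 and 0.39. Adamts10, which acts on fibrillin microfibrils, had -1.06 and -0.93 in siControl and -0.55 and -0.67 in siTIMP1 at its brightest probe. Both siTIMP1 arrays were higher, by 0.39 (SE 0.118, adjusted p = 0.2). The other tested probes of Adamts10 gave 0.05 and 0.07. Adamts12, a protease of cartilage matrix, had 0.37 and 0.10 in siControl and 0.57 and 0.60 in siTIMP1. It too was higher on both siTIMP1 arrays, by 0.35 (SE 0.121, adjusted p = 0.233). This rests on 1 of its 3 probes, since the other 2 were above background on no array. Adamts7, which cuts the same cartilage protein, had 0.50 and 0.54 in siControl and 0.20 and 0.41 in siTIMP1, a difference of -0.22 (adjusted p = 0.362).

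The aggrecanases and procollagen proteinases of this family gave values from -0.25 to 0.31 at their brightest tested probes. Adamts4, an aggrecanase, was higher at all 3 of its probes, by 0.31 to 0.40, with adjusted p-values of 0.306 to 0.374. Its siControl arrays stood at 1.22 and 0.76 at the brightest probe, against 1.25 and 1.36 in siTIMP1, so siControl replicate 1 was close to the siTIMP1 pair. The other aggrecanases, Adamts1 (0.04, interval -0.36 to 0.44) and Adamts5 (0.07, interval -0.66 to 0.81), overlapped between groups, as did Adamts9 (-0.12, interval -0.96 to 0.72). The Adamts9 probe entered the test only through siControl. Of the enzymes that trim procollagen, Adamts2 had a difference of 0.14 (interval -0.14 to 0.43) and Adamts14 of -0.25 (interval -0.68 to 0.19). The dimmer Adamts14 probe was lower on both siTIMP1 arrays, by -0.38 (interval -0.74 to -0.01, limma adjusted p = 0.262). The dimmer Adamts2 probes gave 0.20 and -0.26, the latter having entered only through siControl. Adamts6 had -0.03 (interval -0.63 to 0.57).

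Across the 12 members with more than 1 tested probe, 9 had all probes of the same sign (75%), beside 55.9% of the 5882 such genes on the array. Signs were taken without a tolerance, so the 9 include Mmp9, whose dimmer probe was at 0 after rounding. Also among the 9 are Adam10, Mmp19 and Adamts6, each with a probe that entered the test only through siControl. Adam15 counts too, although its brightest probes overlap on the genome. The exceptions were Adam12, Adam23 and Adamts2, the last also with a probe that entered through siControl only. The share is therefore a description and lends no support to any difference. Arrays of the same group also differed among themselves. The median absolute difference between the siControl arrays was 0.237 over tested members and 0.139 over all genes, and between the siTIMP1 arrays it was 0.119 and 0.105. The siControl arrays were further apart than the siTIMP1 arrays for 17 of the 25 members, beside 9950 of all 17647 genes tested.

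Genes that act with these proteases were followed through 7 lists, of which only Timp1 passed the threshold. Over all genes tested 0.788% passed it. Of 10 inhibitor genes 6 were tested. Besides Timp1, Timp3, which binds to matrix and inhibits ADAMs as well as MMPs, had 5.65 and 5.59 in siControl and 5.28 and 5.33 in siTIMP1. Both siTIMP1 arrays were lower, by -0.31 (SE 0.0534, adjusted p = 0.0974). Without Timp1 the median of the list was -0.31 over 5 genes. Among them Spock3 (-0.88) entered the test only through siControl. Reck had 1.75 and 0.39 in siControl and 0.43 and 0.25 in siTIMP1, so its value of -0.73 rests on siControl replicate 1. Of 8 activating convertases and inducers 6 were tested and 0 passed (median -0.04), the smallest p being that of Bsg, an inducer of MMPs, at 0.19 (adjusted p = 0.262).

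Partners and substrates of Adam10 and Adam17 gave no calls. Of 9 partners 8 were tested, with a median of 0.07. The smallest p was that of Tspan33, a tetraspanin that carries Adam10 to the cell surface (-0.23, adjusted p = 0.236). Tspan5 (0.22) and Tspan14 (0.09), which do the same, and the Adam17 carrier gene Rhbdf2 (0.23) had values above 0. So did Rhbdf1 (0.25), Tspan15 (0.02) and Tspan17 (0.06), while Frmd8 was at -0.08. Only Tspan5 and Rhbdf1 were higher without overlap between groups, beside 31.1% of all genes tested. Of 20 shed substrates 16 were tested with a median of -0.03, and the smallest p was that of Hbegf, a ligand of the EGF receptor, at 0.56 (SE 0.142, adjusted p = 0.16).

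The list of AP-1 and ETS genes, whose products bind MMP promoters, also holds Runx1 and Runx2. All were above background on all 4 arrays, with a median of 0.22 over 14 genes and 0 called. Fos had -0.51 and -0.31 in siControl and 0.49 on both siTIMP1 arrays, a difference of 0.90 (SE 0.11, adjusted p = 0.0546). Fosb had -0.50 and -0.40 in siControl and 0.33 and 0.41 in siTIMP1 (0.82, adjusted p = 0.0552). Both were higher on each siTIMP1 array, though neither passed. Of the other AP-1 genes, Fosl2 (0.28), Junb (0.28) and Jund (0.36) were also higher on each siTIMP1 array. Jun (-0.13) and Fosl1 (0.02) overlapped between groups. In the rest of the list, Runx2 (0.61), Etv5 (0.23) and Ets2 (0.22) were higher on each siTIMP1 array. Ets1 and Runx1 (both -0.15) were lower on each, while Etv4 (-0.01) and Elk3 (-0.08) overlapped. Over all genes tested 31.1% were higher without overlap and 22.9% lower. Whether any gene of the list acts on the cluster genes was not tested. Of the 8 cluster genes with AP-1 letters in a promoter window, none was above background on both arrays of either group, and 7 passed on no array. Of 17 other metzincins and ADAMTS-like genes 10 were tested (median 0.12, smallest p for Adamtsl5 at 0.35, adjusted p = 0.153). Of 19 matrix substrates 16 were tested (median 0.01), with the smallest p for the basement membrane collagen Col4a1 at 0.30 (adjusted p = 0.118).

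**Figure D5:**
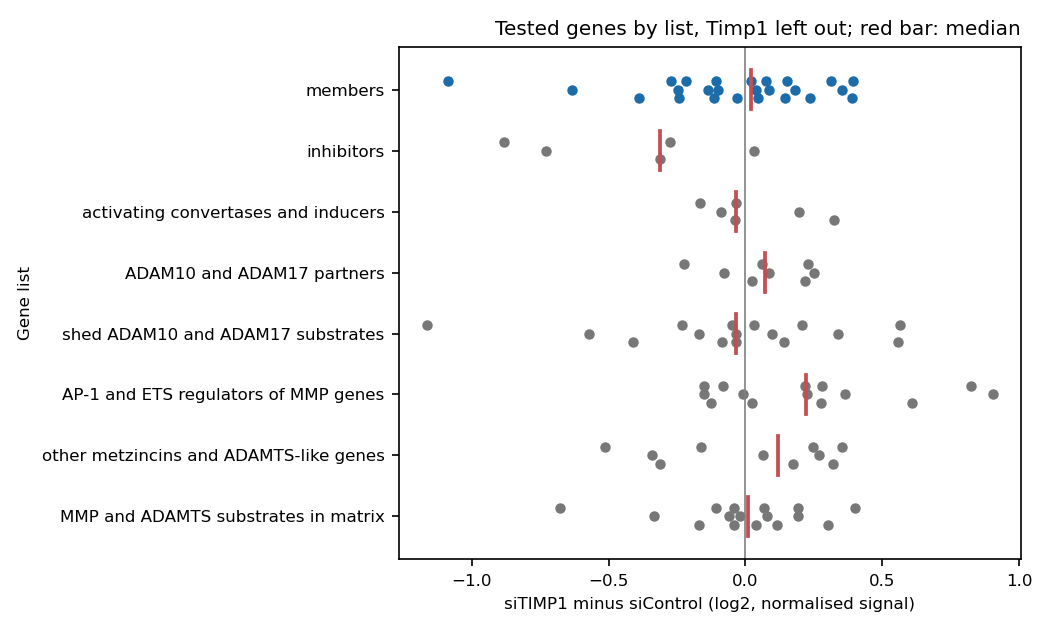
Log2 difference between siTIMP1 and siControl for each tested gene of the members and of the 7 related lists, with the median of each list as a red bar and Timp1 left out. The members centre on 0.022, and the AP-1 and ETS list, which also holds Runx1 and Runx2, on 0.222 with Fos and Fosb at its right end.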

How the data were processed

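Cy3-labelled total RNA was read on 4 Agilent arrays of a single colour. The deposited scanner files hold intensity values per spot. The submitters' processing notes name Feature Extraction in version 11.5.1.1 as the software. Processed signal is, per the file headers, background-subtracted and detrended within an array. A value table of log2 values was deposited too, each column following the processed signal of its array with a constant subtracted; it served as an alternative.

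Normalised signal is log2 of the processed signal, from which the 75th percentile of all non-control spots on that array was subtracted. Spots marked as outliers, 136 to 250 per array, were left out. Testing required a value on each of the 4 arrays and a call well above background on both arrays of either group (26015 probes, 17647 gene names, 42 member probes). A member that passed this filter through 1 group only can differ for that reason. The test was limma 3.58.1 (R 4.3.3), eBayes with a variance trend. Benjamini-Hochberg adjustment covered every tested probe, at a threshold of 0.05. Adjusted p-values come from this fit unless an alternative is named beside them. The code was tested on simulated arrays. A gene is its tested probe with the highest mean. Gene names are those of the array files, and all 50 members matched a RefSeq symbol.

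Values by array are given for members that passed or had a size of at least 0.5, and for up to 3 more per class by smallest p; others by difference. Of each related list, genes that passed or the gene of smallest p are named. The array values of Adam12, Adam17 and Adamts4 and the printed sequences were added after their values were seen. The same holds for the genes Tspan5, Tspan14, Rhbdf2, Fosb, Fosl1, Fosl2, Jun, Junb, Jund, Runx1, Runx2, Timp3, Reck and Spock3. It also holds for Adam11, Adam28, Adam33, Adamts13, Rhbdf1, Tspan15, Tspan17, Frmd8, Ets1, Ets2, Etv4, Etv5 and Elk3. Members, lists and rules were chosen with earlier results of these data known. Promoters came from the RefSeq table of GRCm38.p6. Figures were drawn with matplotlib 3.10.9. The number of arrays limits the precision.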

Additional observations from a re-analysis of the deposited data

How the results depend on the processing

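The alternatives were other background correction (normexp, offset 50), scaling, filter, variance model, probe rule and value source, and leaving out each array, the remaining array of a group then being assumed to vary like the others. Members called lower (1 in the fit on all arrays) numbered 0 without a variance trend, 0 when probes of a gene were averaged, 3 at an unadjusted p under 0.05, and 0 to 3 when an array was left out, with 3 (Adam10, Mmp9 and Adam19) without siControl replicate 1 and 0 without either siTIMP1 array. Over all genes 124 were lower and 15 higher in the fit on all arrays, 643 and 408 without siControl replicate 1, 209 and 90 without siControl replicate 2, and 0 in either direction without either siTIMP1 array or without a trend. Members called higher (0) numbered 3 at the unadjusted threshold and 0 to 1 when an array was left out, Mmp2 without siControl replicate 1. The members' median of 0.022 was 0.177 with no filter, where all 50 enter and the median over all genes was 0.137. It was -0.099 when probes of a gene were averaged, beside 0.013 over all genes. When an array was left out it ran from -0.092 without siTIMP1 replicate 2, beside 0.029 over all genes, to 0.037. Related genes called lower (1, Timp1) numbered 0 without a trend, 2 if the adjusted p had to be under 0.1, 8 if only the unadjusted p had to pass, and 0 to 5 when an array was left out. Related genes called higher (0) numbered 1 with the 75th percentile over detected probes, 2 with the filter on all 4 arrays, 2 without any filter, 2 under a robust eBayes fit, 3 if the adjusted p had to be under 0.1, 15 if only the unadjusted p had to pass, and 0 to 5 when an array was left out. Timp1 had -5.22 without a trend at an adjusted p of 0.133, and ranged from -5.41 to -5.04 when an array was left out, with a lost call at -5.37 without siTIMP1 replicate 1 (adjusted p = 0.137) and -5.07 without siTIMP1 replicate 2 (adjusted p = 0.184). Adam10 ranged from -1.16 to -0.95 and was called in 10 of 14 alternatives (adjusted p from 0.00242 to 0.23). Of 349 member values under alternatives, 342 were on the same side of the threshold as before, 4 lost a call (all Adam10) and 3 gained one; 16 changed sign, called in neither, none of them among the 7 members with a size of at least 0.3. For these changes the cause was not tested. At an unadjusted limma p under 0.05, 7.99% of all genes tested were lower and 11.9% higher. The related counts at that threshold are to be read beside these shares and the numbers tested in each list. A block for the slide could not be fitted with 1 slide alone. No paired analysis was possible because the labels give no replicate numbers that siControl and siTIMP1 share. For the 25 untested members, signal over background limits what can be seen.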

Other observations

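Beyond the chromosome 9 cluster, 2 further pairs of members are neighbours in the genome. Adamts1 and Adamts5, both aggrecanases, lie next to each other among protein-coding genes on chromosome 16 (RefSeq, GRCm38.p6), and both were above background on all 4 arrays, with differences of 0.04 and 0.07. Adamts8 and Adamts15 are neighbours on chromosome 9, and neither was above background on both arrays of either group.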
